A study of Mus musculus with 21 samples.

Results

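The genes described here code for the subunits of voltage-gated ion channels and of the potassium channel families named with them. They were chosen by annotated symbol, from the sodium (Scn), calcium (Cacna, Cacnb, Cacng), hyperpolarization-activated (Hcn) and potassium (Kcn) series, without the epithelial sodium channel genes and Scnm1. Of 121 such genes annotated on the array, 93 had a probe set naming 1 gene that lay above its array's 40th percentile on 3 or more arrays, and the other 28 were not tested. The probe set with the highest mean stood for each gene. The 93 are part of 13850 genes tested in all. They comprise 65 genes of pore-forming or silent alpha subunits, 26 of auxiliary subunits and 2 noncoding transcripts, Kcnq1ot1 and Kcnmb4os2, which code for no subunit. Inward rectifier (Kcnj) and tandem-pore (Kcnk) channels carry no voltage sensor of the usual kind, so the name voltage-gated covers the list only in part.

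The tissue was the rostral cerebral cortex at embryonic day 14 in the mouse, measured on 21 Affymetrix arrays, each a separate biological replicate. Pax6 is a transcription factor of cortical progenitors, and mutant embryos were compared with wild-type littermate controls of their own line, without any treatment. The Sey (Small-eye) line, on a C57BL/6J x DBA/2J (B6D2F1) background, gave 4 mutant and 3 control arrays. The Leca4 line gave 3 mutant and 4 control arrays and the Leca2 line 4 mutant and 3 control arrays, both on 129 S6. Sey is known as a loss-of-function allele, whereas Leca4 and Leca2 are known as point mutations in different subdomains of the DNA-binding paired domain. The labels do not say whether mutant embryos were heterozygous or homozygous. Strain, line and allele cannot be told apart when lines are set side by side.

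Voltage-gated channels open when the membrane potential changes and let sodium, calcium or potassium through, which gives neurons their action potentials and sets transmitter release. Each channel is built from pore-forming alpha subunits joined by auxiliary subunits that set its amount at the surface and its kinetics. In the embryonic cortex these genes are switched on step by step as progenitors leave the cell cycle and become neurons, and dividing cells use another set, including several potassium and low-voltage calcium channels.

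Values are deposited log2 intensities, and a change is the mean of the mutants minus the mean of the controls on that scale. Genes with an adjusted p under 0.05 in a limma model over all 21 arrays are the ones called here. The level of each array, its 40th percentile, lay between 5.37 and 5.60, and 74 of the 93 channel genes were above it on every array. In these tissue samples, fewer cells of a type and less RNA per cell cannot be told apart. Pax6 mRNA itself was higher in all 3 mutants, by 0.56 in Sey, 0.49 in Leca4 and 0.93 in Leca2 (all called), and a probe set for the mRNA does not read these alleles. No pan-neuronal, projection neuron or radial glia marker tested was at or below the level in all control arrays. Correlations between replicates of a group ran from 0.9931 to 0.9972.

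In Sey mutants 25 of the 93 channel genes were called, 10 higher and 15 lower; the 10 include Kcnip4, which passed the filter only through the Sey mutant arrays. That is 26.9%, against 20.2% of all genes tested, with 10.7% of all genes higher and 9.41% lower. In Leca4 mutants 6 channel genes were called, 3 in each direction, or 6.45% against 5.62% of all genes (3.39% higher and 2.24% lower). In Leca2 mutants the single call was Kcna2, near the level and lower, 1.08% against 0.477% of all genes. At an unadjusted p under 0.05 the counts were 40, 26 and 12 of 93 in Sey, Leca4 and Leca2, where all genes gave 31.7%, 18.3% and 6.84%. The median change of the 93 genes was -0.07 in Sey, -0.01 in Leca4 and 0.02 in Leca2, and the median of all genes was within 0.01 of 0 in each line. The Leca4 count moved with single arrays: it was 3 without control 3, without control 4 or without mutant 1, and 9 without control 2. In a fit of only the Leca4 arrays it was 2, Kcnq5 and Cacna2d1. The share of all genes called in these fits is not given, so the counts cannot be set against it. Kcna2 lost its call in Leca2 when either control 1 or 2, or mutant 1, 3 or 4, was left out, with adjusted p from 0.0796 to 0.203. These counts use 1 probe set per gene, and uncalled genes can have another that was called in a limma fit of all kept probe sets. A Kcnf1 probe set near the level (mean 5.54) fell by 0.73 in Leca4 (adjusted p = 0.0118), while the one counted changed by 0.05. Kcnh3 probe sets fell by 0.35 and 0.26 in Sey (adjusted p = 0.0348 and 0.0472), while the one counted changed by -0.07.

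**Figure D1:**
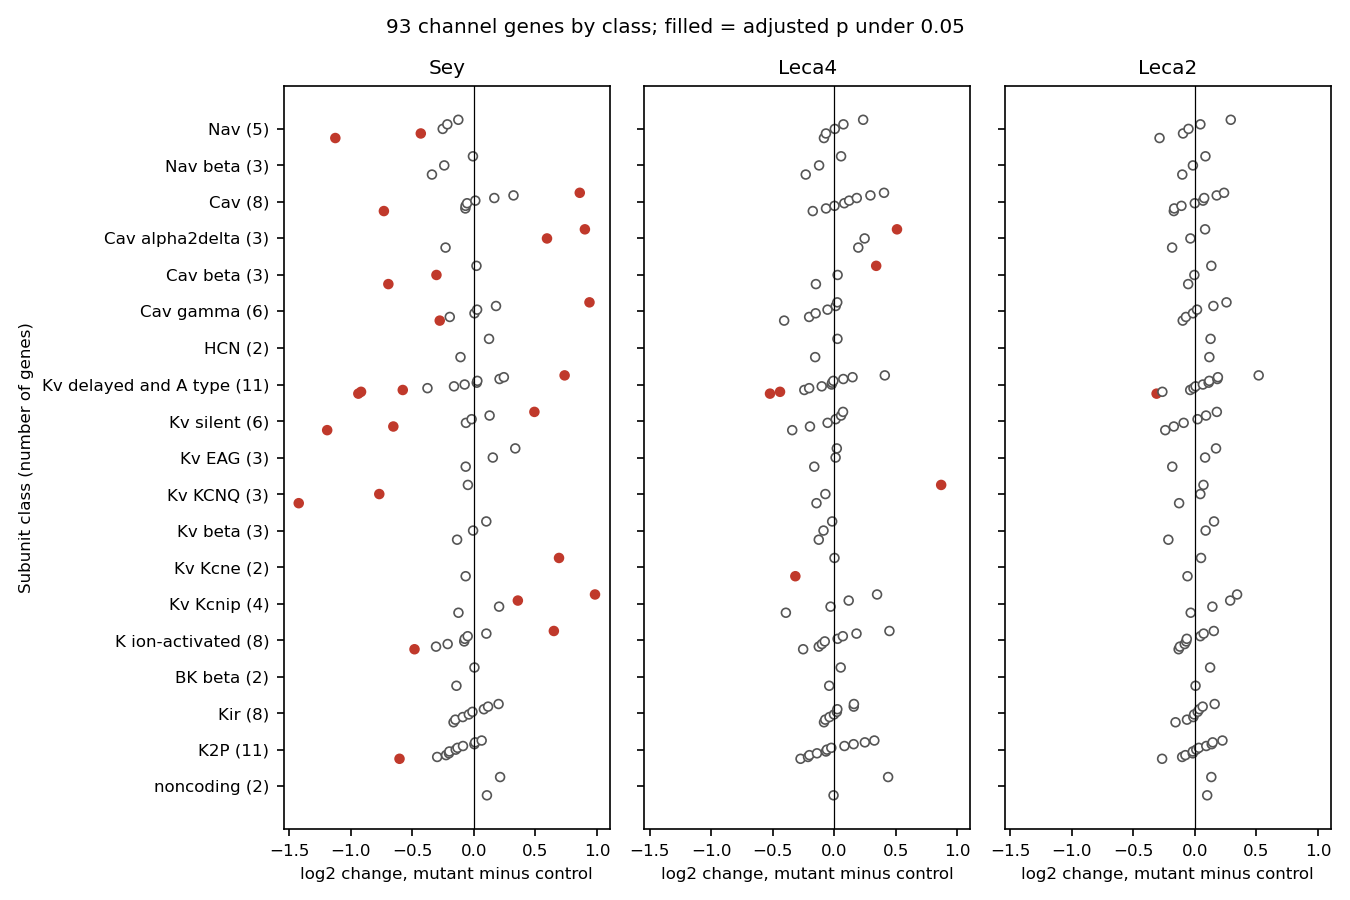
Log2 change (mutant minus control mean) of each of the 93 channel genes in each line, arranged by subunit class; filled points were called at an adjusted p under 0.05 in limma and open points were not. The widest spread is in Sey, from -1.42 (Kcnq3) to 0.94 (Cacng5), leaving aside Kcnip4, whose point rests on controls at or below the level, while the 8 inward rectifier genes stay between -0.16 and 0.20.

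By role, 4 pore-forming or silent alpha subunit genes rose in Sey and 12 fell, of 65 tested. Of 26 auxiliary subunit genes 6 were called higher and 3 fell, and Kcnip4, bound to differ by its filter, is among the 6. Of all genes tested, 10.7% were called higher in Sey and 9.41% lower, and the counts by class below have the same background. The difference between these roles was not tested. In Leca4 the alpha subunit genes gave 1 rise and 2 falls, and the auxiliary genes 2 rises and 1 fall, where 3.39% of all genes rose and 2.24% fell.

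Of 5 sodium channel alpha subunit genes tested, 2 fell in Sey. Scn2a codes for Nav1.2, the alpha subunit that carries most of the sodium current of young excitatory neurons. Its values were 8.60, 8.78 and 8.26 in Sey controls and 7.55, 7.45, 7.56 and 7.13 in Sey mutants. All 4 mutants lay below all 3 controls. The fall was 1.12 (SE 0.20), or 2.18-fold, with an adjusted p of 0.000353. Of 3 further probe sets for Scn2a, those changing by -0.72 and -1.09 were called, and a dim one changed by -0.06. In Leca4 the Scn2a values overlapped, at 8.69, 8.32, 8.72 and 8.78 in controls and 8.60, 9.09 and 8.41 in mutants, a change of 0.07 (adjusted p = 0.899). In Leca2 the change was -0.10 (adjusted p = 1), again with overlapping groups.

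Scn1a, which codes for Nav1.1, a channel best known from inhibitory interneurons, fell by 0.43 (SE 0.13, adjusted p = 0.0233) in Sey. Its controls lay at 6.24, 6.15 and 6.10 and its mutants at 5.84, 5.88, 5.69 and 5.52. The groups did not overlap, but the call was lost without Sey control 1 (adjusted p = 0.0936), control 2 (0.0578), mutant 3 (0.0506) or mutant 4 (0.076). With embryo sex, read from sex-linked genes, as a term, it was also lost (0.0848). The other 3 alpha subunit genes tested gave no call in Sey: Scn3a (Nav1.3, the typical embryonic channel) changed by -0.25, Scn8a (Nav1.6) by -0.13 and Scn11a by -0.22. Scn3a nevertheless separated the groups, with controls from 8.61 to 8.86 and mutants from 8.37 to 8.58. Among the beta subunits, which anchor and modulate the alpha subunits, Scn3b changed by -0.34 (adjusted p = 0.0735) and Scn2b by -0.24 (adjusted p = 0.057), each without overlap. Scn4b, one of the 2 genes that passed the filter by only 3 arrays, changed by -0.01. No sodium channel gene was called with limma in Leca4 or Leca2, where 2 of the 8 in each line had an unadjusted p under 0.05.

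Of 8 calcium channel alpha subunit genes, 1 rose and 1 fell in Sey. Cacna1g codes for Cav3.1, a low-voltage-activated (T-type) channel. It read 6.92, 7.23 and 7.24 in Sey controls and 7.99, 8.32, 7.69 and 7.97 in mutants, so that every mutant exceeded every control. The rise was 0.86 (SE 0.11), or 1.82-fold, adjusted p = 1.64e-05. Cacna1g changed by 0.12 in Leca4 and 0.18 in Leca2, neither called, and its Sey change exceeded both, by 0.74 and 0.68. Cacna1d, the gene of the L-type channel Cav1.3, went the other way. Its Sey controls lay at 6.64, 6.79 and 6.34 and its mutants at 6.05, 6.05, 5.85 and 5.50, a fall of 0.73 (SE 0.15, adjusted p = 0.00182). In Leca4, Cacna1d read 7.08, 6.82, 7.14 and 6.97 in controls and 7.25, 7.73 and 7.25 in mutants, also without overlap, but the change of 0.40 was not called (adjusted p = 0.153). The Sey change differed from that of Leca4 by -1.13. The P/Q-type gene Cacna1a (0.01), the N-type gene Cacna1b (-0.07), the R-type gene Cacna1e (-0.05) and the T-type gene Cacna1h (0.17) were not called in Sey, and neither was the L-type gene Cacna1c at 0.32 (adjusted p = 0.0813).

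The alpha2delta subunits, extracellular proteins that bring calcium channels to the surface, gave 2 calls in Sey and 1 in Leca4. Cacna2d2 read 9.09, 9.26 and 8.85 in Sey controls and 10.00, 10.12, 9.93 and 9.82 in mutants. No mutant came near the controls, and the rise was 0.90 (SE 0.10), 1.87-fold, adjusted p = 1.52e-06. A second Cacna2d2 probe set, near the level with a mean of 5.76, changed by -0.08 (adjusted p = 0.517), and the mean of both gave 0.41. Cacna2d3 read 7.24, 7.23 and 7.15 in Sey controls and 7.73, 7.94, 7.68 and 7.86 in mutants, a rise of 0.59 (SE 0.10, adjusted p = 0.000298). Its Leca4 mutants also lay above all controls, at a change of 0.25 (adjusted p = 0.199), and the Sey and Leca4 changes did not differ past the threshold (0.35, 95% interval 0.04 to 0.65, adjusted p = 0.125). Cacna2d1, whose protein binds gabapentin, was the alpha2delta gene that rose in Leca4. Its Leca4 controls lay at 11.04, 10.79, 10.92 and 10.91 and its mutants at 11.42, 11.57 and 11.27, a rise of 0.51 (SE 0.09, adjusted p = 0.00241). The 3 other Cacna2d1 probe sets changed by 0.54, 0.49 and 0.05 in Leca4, none called. In Sey, Cacna2d1 changed by -0.23 (adjusted p = 0.0971) and in Leca2 by -0.18 (adjusted p = 0.774). Its change in Leca4 exceeded that in Leca2 by 0.69 (adjusted p = 0.00695), and Sey differed from Leca4 by -0.74 (adjusted p = 0.00106).

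The intracellular beta subunits of calcium channels gave 2 falls in Sey. Cacnb4 read 8.45, 8.37 and 8.42 in Sey controls and 7.57, 7.63, 7.93 and 7.74 in mutants, a fall of 0.69 (SE 0.16, adjusted p = 0.00358). Cacnb1, the beta subunit of skeletal muscle that is also present in brain, fell by 0.30 (SE 0.08, adjusted p = 0.00796), with controls from 7.97 to 8.08 and mutants from 7.56 to 7.86. Both genes separated mutants from controls in Sey. In the limma fit of all kept probe sets, the other Cacnb4 ones changed by -0.37 (adjusted p = 0.0195) and -0.31 (adjusted p = 0.266). The other Cacnb1 probe set changed by -0.29 and was not called (adjusted p = 0.102). Cacnb2 changed by 0.02 in Sey and rose by 0.34 (SE 0.09, adjusted p = 0.0397) in Leca4, where its groups overlapped. That Leca4 call was lost when any Leca4 array but control 2 or mutant 1 was left out, with adjusted p from 0.0592 to 0.165.

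The Cacng genes code for tetraspan proteins, several of which (Cacng2, Cacng4, Cacng5 and Cacng8 among them) are better known as partners of AMPA receptors. Cacng5 read 6.37, 6.51 and 6.22 in Sey controls and 7.30, 7.29, 7.01 and 7.62 in mutants, a rise of 0.94 (SE 0.16, adjusted p = 0.000199). In Leca4 the Cacng5 order was the opposite, 6.84, 6.74, 6.92 and 6.88 in controls and 6.12, 6.60 and 6.58 in mutants, but the change of -0.41 was not called (adjusted p = 0.154). The Sey and Leca4 changes differed by 1.35. Cacng8 fell by 0.28 (SE 0.08, adjusted p = 0.0178) in Sey, and its second probe set changed by -0.04; the mean of both was not called (adjusted p = 0.205). The Cacng8 call was also lost with sex as a term (adjusted p = 0.115) and without Sey control 1, control 2, mutant 2 or mutant 4 (adjusted p from 0.0518 to 0.0657). Cacng4 (0.18) and Cacng2 (-0.20) were not called.

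Of the pacemaker channels, 2 genes were tested. Hcn3 changed by -0.11 and Hcn2, which lay near the level, by 0.12 in Sey, and neither was called in any line with limma; none of their unadjusted p was under 0.05.

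**Figure D2:**
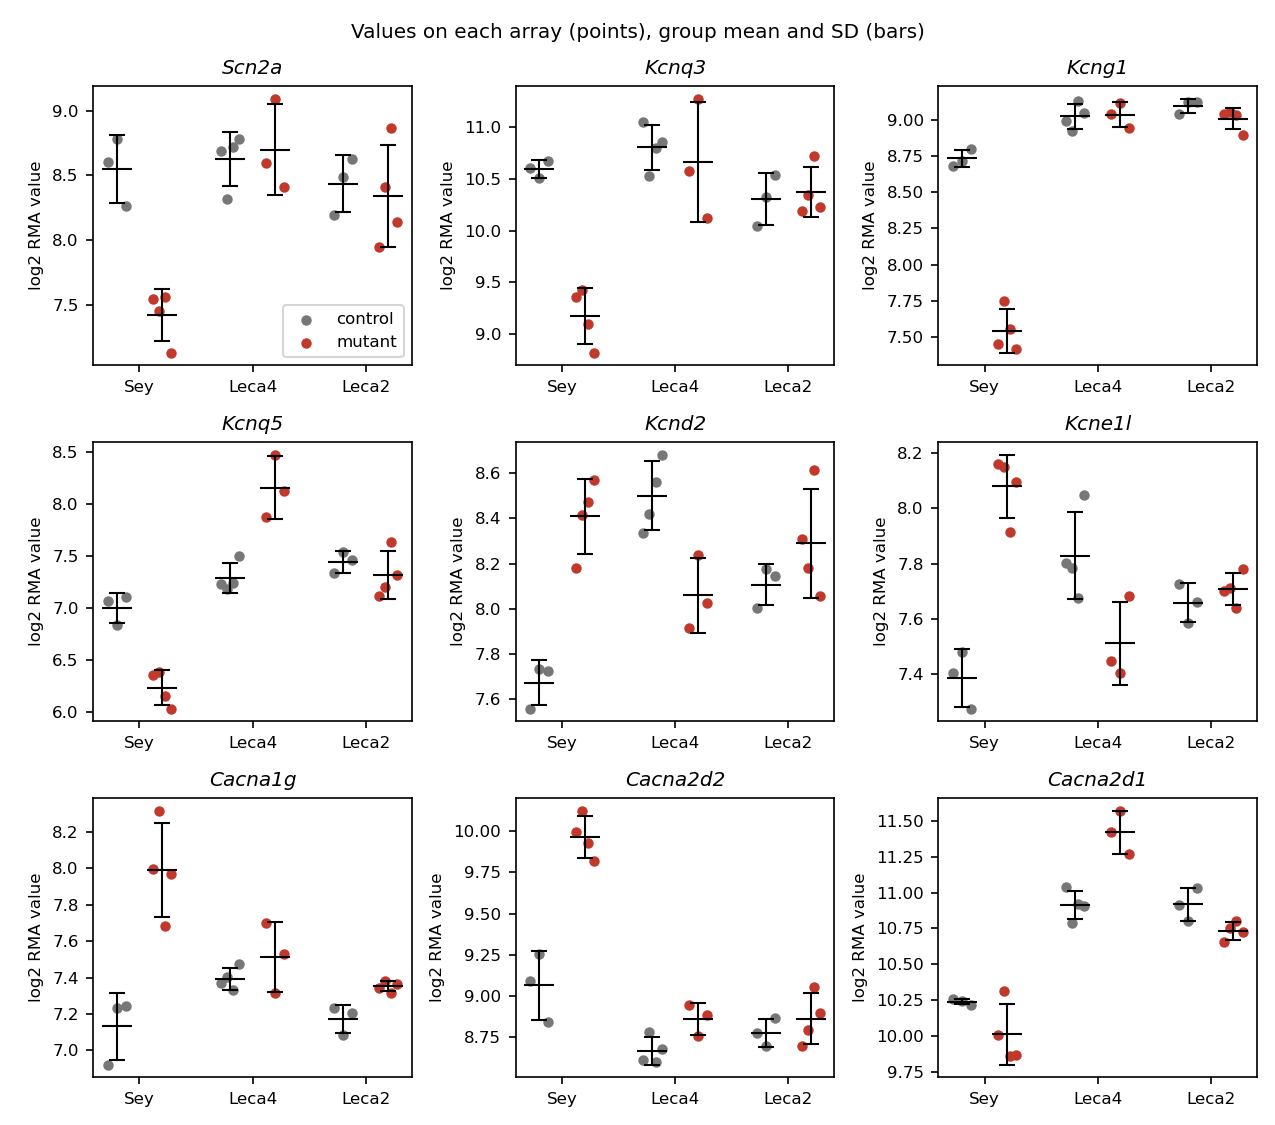
Log2 intensity of 9 channel genes on each array of the 3 lines, controls in grey and mutants in red, with bars at the mean and SD of each group. In Sey the mutants of Scn2a, Kcnq3, Kcng1 and Kcnq5 lie below all controls and those of Kcnd2, Kcne1l, Cacna1g and Cacna2d2 above them; in Leca4 the Kcnq5 and Cacna2d1 mutants lie above all controls.

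The KCNQ genes gave the greatest fall of the list in Sey. Kcnq3 and Kcnq5 code for subunits of the M current, a slow potassium current that restrains repetitive firing. Kcnq3 read 10.60, 10.51 and 10.68 in Sey controls and 9.35, 9.42, 9.10 and 8.82 in mutants. Every mutant was below the lowest control by over 1 log2 unit, and the fall was 1.42 (SE 0.21), or 2.68-fold, adjusted p = 5.92e-05. A second Kcnq3 probe set changed by -1.21. In Leca4 the Kcnq3 mutants were spread from 10.13 to 11.28 around controls from 10.52 to 11.05, a change of -0.14, and in Leca2 the change was 0.07. The Sey change minus the Leca4 change was -1.28, and minus the Leca2 change -1.49, the second not called with embryo sex as a term (adjusted p = 0.0842). Kcnq1, the cardiac member, changed by -0.05 in Sey.

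Kcnq5 fell in Sey and rose in Leca4. It read 7.07, 6.83 and 7.11 in Sey controls and 6.36, 6.39, 6.16 and 6.03 in Sey mutants. The Leca4 controls lay at 7.23, 7.19, 7.24 and 7.51 and the Leca4 mutants at 7.87, 8.48 and 8.12. The groups did not overlap in either line, with the mutants lower in Sey and higher in Leca4. The Sey fall was 0.77 (SE 0.14, adjusted p = 0.000385), and the Leca4 rise was 0.87 (SE 0.14, adjusted p = 0.000538). The difference between these changes was -1.64, with an adjusted p of 1.17e-05. In Leca2 the Kcnq5 groups overlapped, at a change of -0.13 (adjusted p = 1), and Leca4 exceeded Leca2 by 0.99 (adjusted p = 0.00714).

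Kcnd2 and Kcne1l made the reverse pair of changes. Kcnd2 codes for Kv4.2, the main subunit of the fast inactivating A-type current of dendrites. It read 7.56, 7.73 and 7.73 in Sey controls and 8.18, 8.42, 8.47 and 8.57 in mutants, a rise of 0.74 (SE 0.12, adjusted p = 0.00016). In Leca4 it read 8.34, 8.42, 8.56 and 8.68 in controls and 7.91, 8.24 and 8.03 in mutants, a fall of 0.44 (SE 0.12, adjusted p = 0.035). No mutant overlapped the controls in either line. The other 2 Kcnd2 probe sets changed by 0.64 and 0.70 in Sey, both called, and by -0.32 and -0.52 in Leca4, the second one called. The Leca4 call was lost without Leca4 control 3 (adjusted p = 0.0869), control 4 (0.104), mutant 1 (0.164) or mutant 3 (0.0982). The difference between the Sey and Leca4 changes was 1.18, adjusted p = 0.000106.

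Kcne1l, the X-linked gene of a small single-pass subunit also named KCNE5 that slows KCNQ1 channels, had 1 probe set. It read 7.41, 7.48 and 7.28 in Sey controls and 8.16, 8.15, 7.91 and 8.10 in mutants, a rise of 0.69 (SE 0.09, adjusted p = 9.44e-06). In Leca4 it read 7.80, 7.79, 7.68 and 8.05 in controls and 7.45, 7.40 and 7.68 in mutants, a fall of 0.32 (SE 0.09, adjusted p = 0.0352) whose groups overlapped slightly. Without Leca4 control 1, control 4, mutant 1 or mutant 2 that call was lost, with adjusted p from 0.0605 to 0.138. Sex was unevenly spread in Sey, with 3 male controls and no female one, and 1 male and 3 female mutants. With sex as a term Kcne1l rose by 0.68 in Sey (adjusted p = 0.00014) and fell by 0.32 in Leca4 (adjusted p = 0.0416). The Sey and Leca4 changes differed by 1.01 (adjusted p = 1.53e-05).

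Kcnd2, Kcne1l and Kcnq5 were the 3 channel genes called in both Sey and Leca4, and all 3 changed in opposite directions. Of all genes, 280 were called in both lines and 91 of them, 32.5%, were opposite. The Leca4 calls of Kcnd2 and Kcne1l depended on the model. Both were lost in a fit of only the Leca4 arrays (adjusted p = 0.0803 and 0.18). Both were also lost with the replicate number as a block (adjusted p = 0.065 and 0.163). Leca4 control 4 has no mutant of its number, so the block sets it aside. The changes, -0.38 for Kcnd2 and -0.24 for Kcne1l, were those found without that array, so this is no separate check. Of the 3 genes, only Kcnq5 kept its Leca4 call in these fits. The share of opposite genes among all genes is not given for them. No channel gene was called in both Sey and Leca2 or in both Leca4 and Leca2. Of all genes tested, 45 and 26 were called in these pairs of lines. With 1 channel gene called in Leca2, the absence says nothing particular about the channel genes.

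**Figure D3:**
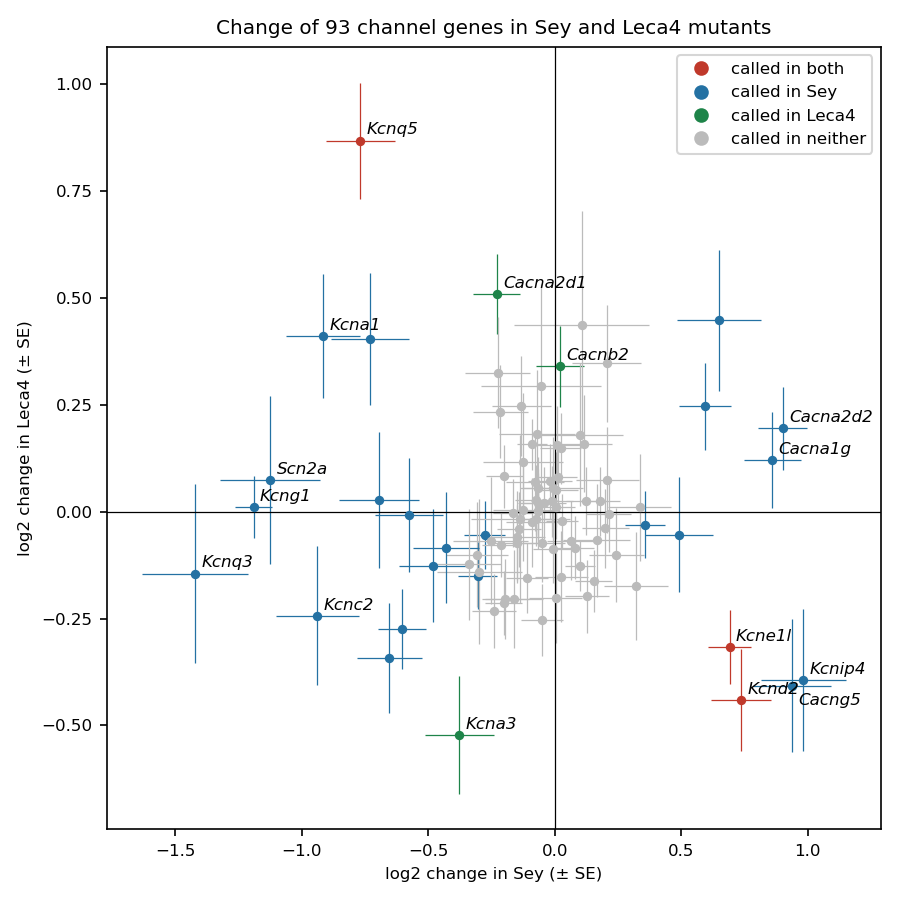
Log2 change in Leca4 against log2 change in Sey for the 93 channel genes, with SE bars, coloured by the line in which each was called. Kcnq5 lies at -0.77 in Sey and 0.87 in Leca4, and Kcnd2 (0.74 and -0.44) and Kcne1l (0.69 and -0.32) lie in the opposite corner.

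The 250 bases before the annotated start of these 3 genes, and of Scn2a, are shown because these 3 were called in opposite directions in the lines, and Scn2a was called in Sey; sequences are RefSeq's, on build GRCm38.p6, read 5′ to 3′ on the gene's strand, and capitals mark matches to CANNTG. They lie at chr6:21215096-21215345 (plus strand) for Kcnd2, chrX:142306199-142306448 (minus) for Kcne1l, chr1:21962651-21962900 (minus) for Kcnq5 and chr2:65620519-65620768 (plus) for Scn2a. Kcnq5 and Scn2a each have a second annotated start that is not printed, and which start is used in this tissue is not known from these data.
Kcnd2: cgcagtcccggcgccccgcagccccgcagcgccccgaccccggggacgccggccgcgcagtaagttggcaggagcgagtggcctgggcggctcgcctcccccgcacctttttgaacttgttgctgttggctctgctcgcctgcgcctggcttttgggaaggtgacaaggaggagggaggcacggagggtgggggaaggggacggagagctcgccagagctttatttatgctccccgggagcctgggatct
Kcne1l: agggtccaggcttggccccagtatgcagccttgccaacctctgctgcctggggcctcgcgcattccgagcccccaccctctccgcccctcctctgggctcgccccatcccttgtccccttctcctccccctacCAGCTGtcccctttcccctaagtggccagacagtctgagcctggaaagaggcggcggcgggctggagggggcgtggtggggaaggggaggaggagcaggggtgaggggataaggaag
Kcnq5: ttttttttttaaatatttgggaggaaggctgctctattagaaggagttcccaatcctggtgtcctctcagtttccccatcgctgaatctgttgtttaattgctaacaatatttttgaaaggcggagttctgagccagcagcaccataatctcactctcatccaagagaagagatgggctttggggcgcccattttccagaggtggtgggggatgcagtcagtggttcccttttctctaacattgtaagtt
Scn2a: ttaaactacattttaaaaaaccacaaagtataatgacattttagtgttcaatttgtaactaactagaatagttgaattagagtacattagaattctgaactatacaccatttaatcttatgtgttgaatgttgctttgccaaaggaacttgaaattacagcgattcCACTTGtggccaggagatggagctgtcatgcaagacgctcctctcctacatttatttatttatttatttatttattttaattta

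CANNTG is the E-box read by basic helix-loop-helix factors such as those of neurogenesis. It, TAATTA (a homeodomain core) and TTCACGC (a core of the Pax6 paired-domain site) were searched on both strands; CANNTG is its own reverse complement in form, and none of the 3 contains another. The windows of Kcne1l and Scn2a each hold 1 CANNTG, beginning at positions -117 and -84 counted from the start, and those printed for Kcnd2 and Kcnq5 hold none of these letters. GC content was 68.8% for Kcnd2, 68% for Kcne1l, 44.4% for Kcnq5 and 29.6% for Scn2a. Of 32851 promoter windows of all genes, 66.2% held CANNTG, 4.84% TAATTA and 1.03% TTCACGC. Of 100 windows of the 70 channel genes with an entry, the shares were 64%, 0% and 1%. A match is a description of the letters and not a binding site.

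Of the 11 genes of delayed rectifier and A-type channels, 3 fell in Sey and 1, Kcnd2, rose. Kcna1, the axonal channel Kv1.1, read 8.29, 8.29 and 8.46 in Sey controls and 7.30, 7.59, 7.57 and 7.27 in mutants, a fall of 0.92 (SE 0.14, adjusted p = 0.000128). Of its 3 further probe sets, those at -0.70 and -0.84 were called and one near the level changed by -0.10. In Leca4 Kcna1 mutants lay above all controls, at a change of 0.41 that was not called (adjusted p = 0.119), and the Sey and Leca4 changes differed by -1.33. Kcnc2, whose channel Kv3.2 supports fast firing, read 6.76, 6.93 and 6.51 in Sey controls and 5.75, 5.73, 5.93 and 5.76 in mutants, a fall of 0.94 (SE 0.16, adjusted p = 0.000308). In Leca2 the Kcnc2 controls lay at 6.61, 6.94 and 7.04 and the mutants at 7.21, 7.40, 7.83 and 7.08. Those Leca2 mutants were all above the controls, but the change of 0.52 (95% interval 0.18 to 0.86) was not called (adjusted p = 0.287). The Sey change minus the Leca2 change was -1.46. Kcna6 (Kv1.6) fell by 0.58 (SE 0.13, adjusted p = 0.00405) in Sey, with controls from 7.17 to 7.48 and mutants from 6.53 to 6.94.

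Kcna3 and Kcna2, which also code for Kv1 subunits, gave the remaining calls of this class. Kcna3 read 6.20, 6.20, 6.33 and 6.35 in Leca4 controls and 5.66, 6.12 and 5.47 in Leca4 mutants, a fall of 0.52 (SE 0.14, adjusted p = 0.0297). All 3 mutants were lower, yet the call was lost without Leca4 control 3, control 4, mutant 1 or mutant 3, with adjusted p from 0.0741 to 0.158. In Sey the Kcna3 change was -0.38 (adjusted p = 0.0605) and in Leca2 -0.26 (adjusted p = 0.789). Kcna2 read 5.43, 5.49 and 5.36 in Leca2 controls and 5.08, 5.28, 5.06 and 5.04 in mutants, without overlap (adjusted p = 0.0275). All the Leca2 mutants, and all controls but 1, lay at or below the level, so no size of the difference is given. A second Kcna2 probe set changed by -0.18 (adjusted p = 0.944), and the mean of both was not called (adjusted p = 0.58). Kcnd3 (0.24) and Kcnc1 (0.21) had Sey mutants above all controls without a call.

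Silent subunits form no channel alone and modify the Kv2 channels they join. Kcng1 (Kv6.1) had the smallest adjusted p of the 93 genes in the Sey comparison. It read 8.68, 8.72 and 8.80 in Sey controls and 7.45, 7.75, 7.56 and 7.41 in mutants. The gap between the groups was wider than the spread within either, and the fall was 1.19 (SE 0.07), or 2.28-fold, adjusted p = 1.39e-09. In Leca4 the change of Kcng1 was 0.01 (95% interval -0.14 to 0.16) and in Leca2 -0.09 (-0.24 to 0.06), with overlapping groups. Kcnv1 (Kv8.1) read 7.93, 7.78 and 7.71 in Sey controls and 7.10, 7.20, 7.30 and 7.00 in mutants, a fall of 0.65 (SE 0.13, adjusted p = 0.00106). Kcns2 (Kv9.2) passed the filter only through the 7 arrays of the Sey line and rose by 0.49 (SE 0.13, adjusted p = 0.0129) with overlapping groups. Without Sey control 3 that rise was 0.41 and not called (adjusted p = 0.0745). Kcnh2, the ether-a-go-go related gene known from the heart, was called in no line, but its Sey change of 0.15 differed from that of Leca4 (-0.16) by 0.32 (adjusted p = 0.0483). That call was lost without any one of the 7 Sey arrays (adjusted p from 0.0521 to 0.116), without most single arrays of the other lines, and with no filter (0.0659) or a sex term (0.0892).

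The Kcnip genes code for calcium-binding partners of Kv4 channels such as that of Kcnd2, and 2 of 4 were called in Sey. Kcnip3 read 7.42, 7.34 and 7.51 in Sey controls and 7.91, 7.80, 7.66 and 7.75 in mutants, a rise of 0.36 (SE 0.08, adjusted p = 0.00253). In Leca2 Kcnip3 mutants also lay above all controls, at 0.29, without a call (adjusted p = 0.164). Kcnip4 read 4.98, 5.22 and 5.26 in Sey controls, all at or below the level, and 6.17, 6.00, 6.59 and 5.80 in mutants. Taking each control array at its level, the mutants were at least 1.68-fold higher (fitted change 0.98, SE 0.17, adjusted p = 0.000247). Since Kcnip4 passed the filter only through these 4 mutant arrays, it was bound to differ, and it says nothing about the family. Kcnip1 (0.21) and Kcnip2 (-0.12) were not called.

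Among channels gated by calcium or other ions, Kcnn1 and Kcnu1 were called in Sey. Kcnn1 codes for SK1, a small-conductance channel opened by calcium. It read 8.58, 8.34 and 7.62 in Sey controls and 9.06, 8.90, 8.70 and 8.66 in mutants. Every mutant exceeded every control, and the rise was 0.65 (SE 0.16, adjusted p = 0.00769). Without Sey control 3, the lowest, it was 0.37 and not called (adjusted p = 0.0612). Kcnu1, the pH-sensitive channel SLO3 known from sperm, fell by 0.48 (SE 0.13, adjusted p = 0.0132), with controls from 7.41 to 7.67 and mutants from 6.97 to 7.14. Its call was lost without Sey control 1 (adjusted p = 0.0635) or control 2 (0.0564). Kcnma1, the BK channel, changed by -0.31 (adjusted p = 0.0879), and its partner Kcnmb4 by -0.14.

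Of 11 tandem-pore genes, which set the resting potential, 1 was called. Kcnk10 (TREK-2) read 8.38, 8.48 and 8.61 in Sey controls and 7.86, 7.84, 7.92 and 7.93 in mutants, a fall of 0.60 (SE 0.09, adjusted p = 0.000105), while a second probe set changed by -0.12. The Kcnk10 change was -0.27 in both Leca4 (adjusted p = 0.104) and Leca2 (adjusted p = 0.412), with no overlap in Leca2. Its relative Kcnk2 (TREK-1) changed by 0.06 in Sey. None of the 8 inward rectifier genes was called in Sey, Leca4 or Leca2 with limma; Kcnj10, the glial channel Kir4.1, had the highest Sey change, 0.20 (adjusted p = 0.143). At an unadjusted p under 0.05 there was 1 of 8 in Sey, 1 in Leca4 and 0 in Leca2. Kcnk1 (TWIK-1) had Sey mutants below all controls at -0.30, without a call (adjusted p = 0.247). The Kv beta genes, 3 tested with Kcnab1 at -0.14 and Kcnab2 at 0.10 in Sey, and the noncoding transcripts (2) gave no call with limma either, and at an unadjusted p under 0.05 at most 1 gene of each in a line.

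**Figure D4:**
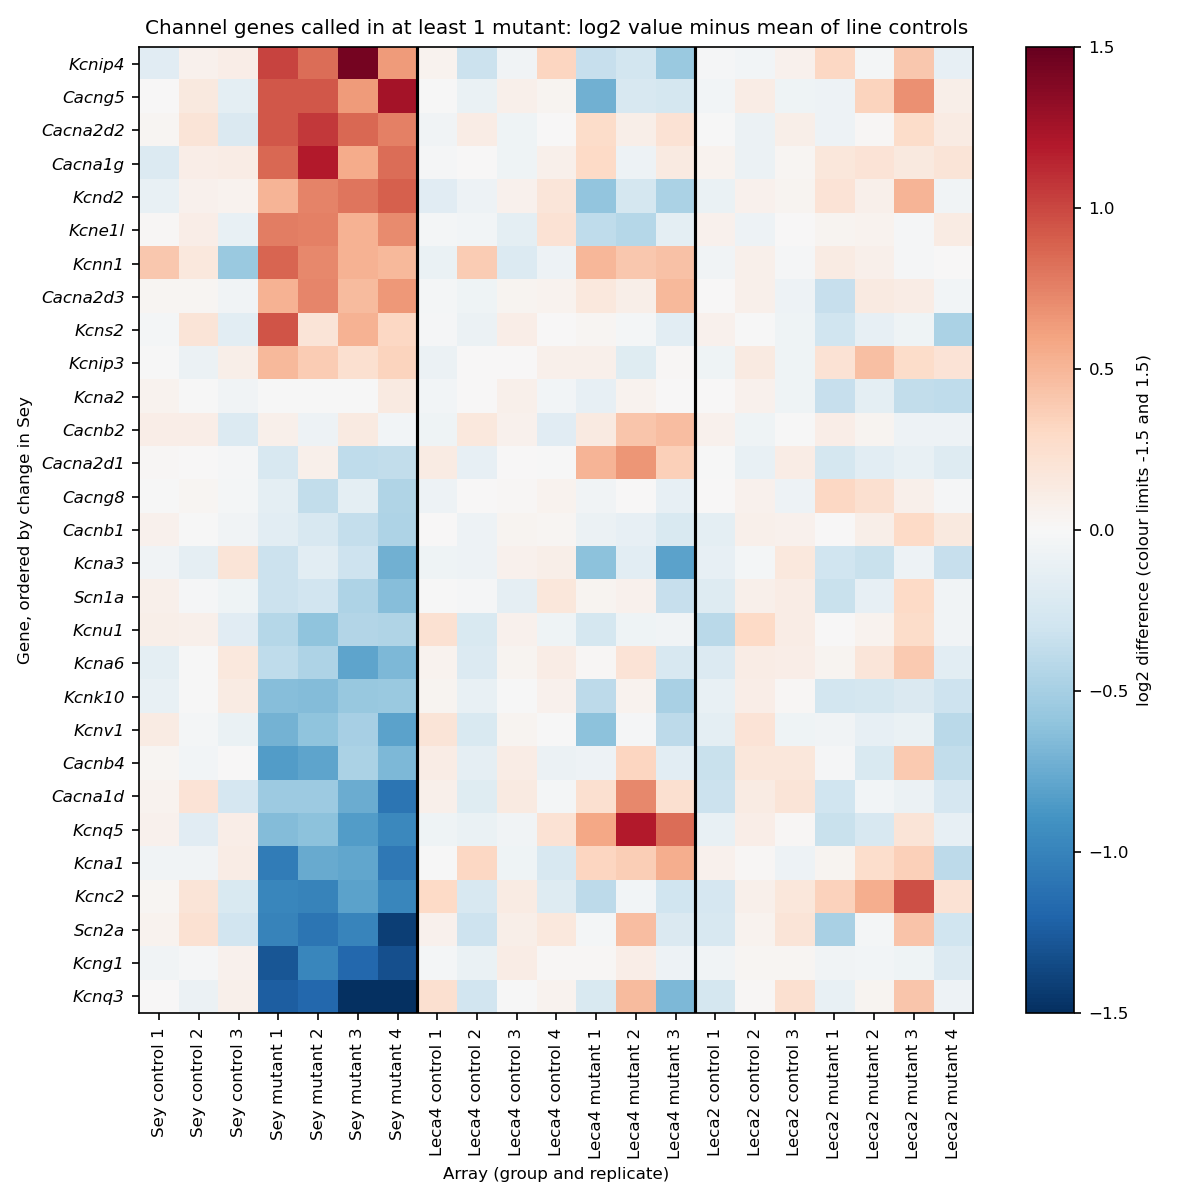
Log2 value on each array minus the mean of the controls of its line, for the 29 channel genes called in 1 or more mutants; the colour scale ends at -1.5 and 1.5. The Sey mutant columns hold the strongest colours in both directions, and Kcnq5, Kcnd2 and Kcne1l change colour between Sey and Leca4.

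The changes of 16 channel genes differed between Sey and Leca4, 17.2% against 12.8% of all genes. In 8 of them the Sey change was the higher one (6.76% of all genes) and in 8 the lower one (6.08%). Kcnip4, bound to differ by its filter, is among the 8 higher ones. Between Sey and Leca2 15 differed (16.1% against 6.69%), 7 higher in Sey (3.43%) and 8 lower (3.26%). The 7 include Kcnip4 and also Kcns2, which lay at or below the level on all Leca2 arrays. With sex as a term the count was 6 (2.12% of all genes were then called), and the calls of Scn2a (adjusted p = 0.211), Kcna6 (0.32), Kcnq3 (0.0842), Cacna2d3 (0.123), Kcnip4 (0.0862) and Kcns2 (0.142) were among those lost. Sex was spread in opposite ways in these lines: the 3 Sey controls were male and the 3 Leca2 controls female, with 1 male and 3 female Sey mutants and 2 of each among Leca2 mutants. Between Leca4 and Leca2 2 differed, Kcnq5 and Cacna2d1, both higher in Leca4 (2.15% against 2.38%, of which 1.42% higher and 0.96% lower). These tests share the Sey, Leca4 or Leca2 arrays with each other. Without Leca2 control 1 the Sey against Leca2 count was 8, and the differences for Scn2a, Kcna6, Kcnip4 and Kcns2 were then lost (adjusted p from 0.0742 to 0.121). Counting genes whose mutants and controls did not overlap gave 15 higher and 26 lower of 93 in Sey, where 16.5% and 14.5% of all genes did so. Kcnip4 is among the 15 higher ones. The same counts were 8 and 10 in Leca4 (8.25% and 7.03% of all genes) and 6 and 6 in Leca2 (3.26% and 3.34%).

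The chromosome of Pax6, chromosome 2, carries 10 of the 93 genes, and 5 of them were called in Sey: Cacnb4, Kcng1, Kcnip3, Scn1a and Scn2a. That is 50%, against 24.4% of 1113 genes tested on this chromosome. In Leca4 1 of the 10, Cacnb2, was called (8.98% of that chromosome's genes), and in Leca2 none with limma (1.35%), where 1 had an unadjusted p under 0.05.

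Genes that work beside the channels were also called in Sey, where all genes gave 10.7% higher and 9.41% lower. Of 29 partners and anchors tested, 2 rose and 7 fell, with a median of -0.15. Cntn2, an axonal adhesion molecule of juxtaparanodes, fell by 1.17 and Fgf11, an intracellular sodium channel partner, by 0.83. Nalcn, the sodium leak channel, rose by 0.94 and Rims2, a release-site scaffold that binds calcium channels, by 0.65. Of 17 pumps and carriers, 1 rose and 4 fell, including the sodium-calcium exchangers Slc8a1 (-0.74) and Slc8a2 (-0.44), the calcium pump Atp2b2 (-0.31) and, as the rise, the potassium-chloride carrier Slc12a7 (0.56). Of 32 other channels, 2 rose and 9 fell, among them Trpm4 (-0.49), Trpc1 (-0.55) and the store-operated entry genes Stim1 (-0.29) and Orai1 (-0.38). In Leca4 3 partners rose, Dlg2 (0.61), Fgf12 (0.54) and Cntnap2 (0.49), and 2 other channels did, Ano6 (0.45) and Tpcn1 (0.24). No gene of these 3 lists was called with limma in Leca2, where 0, 2 and 2 had an unadjusted p under 0.05. Of the pumps and carriers none was called in Leca4, with 1 at an unadjusted p under 0.05.

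Markers of cell types moved in Sey together with the channel genes, where all genes gave 10.7% higher and 9.41% lower. Of 18 projection neuron markers 1 rose and 14 fell, and their mean level per array was 10.72 to 10.73 in controls and 10.06 to 10.17 in mutants. Of 20 pan-neuronal markers 1 rose and 9 fell (10.92 to 11.05 against 10.69 to 10.81). Of 18 markers of ventral and GABAergic neurons 9 rose and 1 fell (6.80 to 7.08 against 8.15 to 8.65), with Dlx6 at or below the level in all controls. Of 9 Cajal-Retzius markers 7 rose (7.74 to 7.86 against 8.40 to 8.70), and all 15 mitosis genes rose (9.70 to 9.76 against 10.37 to 10.48). Of 20 radial glia markers 4 rose and 8 fell (10.67 to 10.72 against 10.45 to 10.66), and of 14 intermediate progenitor markers 5 rose and 7 fell (10.31 to 10.36 against 9.67 to 9.90). Of 7 diencephalon markers 3 rose and 1 fell (6.87 to 7.00 against 7.54 to 7.86), with Gbx2 at or below the level in all controls. Also in Sey, 3 of 6 oligodendrocyte precursor markers rose, and of 8 meninges markers 2 rose and 1 fell. Rises were called there for 1 of 10 pericyte and 1 of 7 choroid plexus markers. Of 13 endothelium markers 1 rose and 1 fell, and of 6 erythroid markers 1 fell. None of 11 microglia markers was called with limma in Sey, with 1 at an unadjusted p under 0.05. In Leca4 no pan-neuronal marker was called with limma (3 of 20 at an unadjusted p under 0.05). There 4 of 11 microglia markers rose (7.21 to 7.36 against 7.52 to 7.60). Of 18 projection neuron markers 2 rose and 2 fell in Leca4, and of 20 radial glia markers 1 rose and 3 fell. Rises were also called for 2 of 14 intermediate progenitor, 2 of 10 pericyte and 2 of 8 meninges markers. In the choroid plexus (7) and oligodendrocyte precursor (6) lists 1 marker each rose. Of all genes, 3.39% were called higher and 2.24% lower in Leca4. In Leca2 2 radial glia markers fell (11.05 to 11.12 in controls, 10.90 to 11.01 in mutants) and 2 intermediate progenitor markers did (10.81 to 10.93 against 10.48 to 10.73). Of 8 meninges markers 1 fell there, and of all genes 0.303% were called lower. The part of these cell types in the changes of the channel genes was not tested.

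At the edge of the filter, Kcnk6 and Scn4b passed on 3 arrays each, while Cacng6 and Kcna5 missed it with 2. The 28 genes that were not tested include Scn9a, Scn10a and Scn7a, the skeletal muscle gene Cacna1s and 7 of 15 inward rectifier genes. With no filter, 27 of all 121 genes were called in Sey. The share of all genes called in that setting is not given here, so the 27 cannot be set against it.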

How the data were processed

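Total RNA was amplified, labelled with biotin and hybridised, per the labels' protocols. The deposited values are log2 intensities made with RMA, per the submitters' processing notes; its version and the annotation build are not stated there. Array medians differ between lines, so levels were compared within a line only. Of 45101 probe sets, 25140 named 1 gene and passed the filter.

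The values were used as deposited. One linear model of 6 groups over 21 arrays was fitted with limma 3.58.1 in R 4.3.3 (15 residual degrees of freedom), two-sided, with Benjamini-Hochberg adjustment over 13850 genes per contrast. It was tested on simulated data. The number of arrays limits the precision; the median SE was 0.10. Named are up to 12 called channel genes per comparison and direction, the 6 largest differences between lines per direction, fixed index genes and up to 4 genes per list. Cacnb1, Cacng8, Kcnf1, Kcnh3, Kcnj10, Kcnq1 and Scn11a were added after their values were seen. The channel genes and lists were chosen with earlier results of these data known. Alternatives covered the filter, probe sets, scaling, weights, sex, thresholds, the replicate number as a block and each array left out.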

Additional observations from a re-analysis of the deposited data

Results flagged for a closer look

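In groups of 4 arrays, 13 of 156 gene and group combinations had 1 array far from the other 3 on the log2 scale; chance gives about 1 in 20. In Sey mutants these were Cacna1a at 7.64, Kcna2 at 5.03 (both mutant 4), Kcnc2 at 5.93, Kcnip1 at 8.15 and Kcnk1 at 6.82 (all mutant 3), Kcnd3 at 9.34 (mutant 1) and Kcnu1 at 6.97 (mutant 2). In Leca2 mutants they were Cacna1b at 8.49 and Kcna3 at 6.38 (both mutant 3), Kcna2 at 5.28 (mutant 2) and Kcng1 at 8.90 (mutant 4). In Leca4 control 4 they were Kcnip1 at 9.26 and Kcnq5 at 7.51.

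The limma change of a gene differed between lines as follows. Sey minus Leca4 was positive for Kcnip4 (1.38), Cacng5 (1.35), Kcnd2 (1.18), Kcne1l (1.01), Cacna1g (0.74) and Cacna2d2 (0.71). It was negative for Kcnq5 (-1.64), Kcna1 (-1.33), Kcnq3 (-1.28), Kcng1 (-1.20), Scn2a (-1.20) and Cacna1d (-1.13). Sey minus Leca2 was positive for Kcnip4 (0.84), Cacna2d2 (0.82), Kcns2 (0.73), Cacna1g (0.68), Kcne1l (0.64) and Cacna2d3 (0.63). It was negative for Kcnq3 (-1.49), Kcnc2 (-1.46), Kcng1 (-1.10), Scn2a (-1.03), Kcna1 (-0.98) and Kcna6 (-0.69). Leca4 minus Leca2 was positive for Kcnq5 (0.99) and Cacna2d1 (0.69). The values for Kcnip4 and Kcns2 are no measured sizes: Kcnip4 was at or below the level on every array but the 4 Sey mutants, and Kcns2 on all Leca4 and Leca2 arrays. With a sex term, Kcnip4, Kcns2, Cacna2d3, Kcnq3, Scn2a and Kcna6 were no longer called for Sey minus Leca2.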

How the results depend on the processing

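Over every called change of a channel gene and every called difference between lines, no alternative that gave values per gene reversed a direction; the fit of every probe set gave counts only. The Sey count of 25 called channel genes ranged from 22 to 28 when single arrays were left out. The Leca4 count of 6 ranged from 3 to 9, the Leca2 count of 1 from 0 to 1, the Sey minus Leca4 count from 13 to 19, the Sey minus Leca2 count from 8 to 18 and the Leca4 minus Leca2 count from 2 to 3. With only the groups compared, Leca4 gave 2 calls and Leca2 gave 0. Leca2 also gave 0 with the 60th percentile filter, the mean of probe sets, the trend and robust fit, the sex term and a change of at least 1.4-fold, and in that last setting Leca4 gave 3. Array weights gave 4 for Leca4 minus Leca2. The sex term gave 23 calls for Sey, where 14% of all genes were then called, 6 for Leca4 (5.4%) and 0 for Leca2 (0.383%). It gave 6 for Sey minus Leca2 (2.12%), 14 for Sey minus Leca4 (9.28%) and 2 for Leca4 minus Leca2 (1.98%). An adjusted p under 0.10 gave 26 for Sey minus Leca4 and 7 for Leca4 minus Leca2. With only the groups compared, Sey calls were lost for Kcnn1 (adjusted p = 0.0659), Kcns2 (0.0842) and Cacng8 (0.0505). With the replicate block the differences for Cacna1g (0.066) and Cacna2d3 (0.0508) between Sey and Leca2 and for Cacna2d1 between Leca4 and Leca2 (0.0638) were lost. The difference for Kcnq3 was lost between Sey and Leca2 with the sex term (0.0842) and between Sey and Leca4 with the replicate block (0.0531). Over single genes and alternatives, 6054 values kept their side of the threshold, 174 lost a call and 44 gained one. The cause was not tested. Apart from those with the sex term, the counts in this section stand without the share of all genes called in each setting and cannot be set against it.

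Replicate numbers were not taken to pair mutants with controls in the main model. After the mean of its group was subtracted from each gene, mutant and control arrays of the same number were correlated. These remainders, not the arrays themselves, correlated at 0.09, 0.03 and 0.10 in Sey. The values were 0.10, -0.44 and -0.19 in Leca4 and 0.34, -0.05 and 0.23 in Leca2. Arrays of different numbers were not compared in this way, so the values do not settle whether the numbers mark pairs. With the replicate number as a block the counts were 25 in Sey, 3 in Leca4, 0 in Leca2, 12 for Sey minus Leca4, 8 for Sey minus Leca2 and 1 for Leca4 minus Leca2. For these too, the share of all genes is not given.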
